A study of Mus musculus with 24 samples.

Results

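The feeding and arousal peptides are 8 genes for neuropeptides of the arcuate nucleus and the lateral hypothalamus, namely *Agrp*, *Npy*, *Pomc*, *Kiss1*, *Tac2*, *Hcrt*, *Pmch* and *Nts*. They were taken from the deposited table by gene name, 8 of its 22274 genes. RNA was sequenced after pituitary stalk electrical lesion, abbreviated PEL, where the link between hypothalamus and pituitary is destroyed by current, and after Sham surgery. The 6 hypothalamic groups, each of 3 libraries, were Sham and Sham_GH, both labelled day 0, PEL_3d and PEL_3d_GH at day 3, and PEL_10d and PEL_10d_GH at day 10. In every comparison with Sham or Sham_GH the lesion and the day label change together, so their effects cannot be told apart. A lesion effect or a fall after the lesion is meant in this sense below. GH is an added treatment that the labels do not spell out, and its dose and schedule are not given in the sources used here, nor is the age of the mice. The methods describe male C57BL/6J mice, and hypothalamic pieces that held the supraoptic and paraventricular nuclei. Nothing states that the libraries of a group came from separate animals, so a p-value measures the spread between these libraries, which may be technical.

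Neurons of the arcuate nucleus that make agouti-related peptide (*Agrp*) and neuropeptide Y (*Npy*) drive feeding, while their neighbours that make pro-opiomelanocortin (*Pomc*) restrain it. AgRP and the melanocortin peptides cut from POMC act in opposite directions on the same receptors, and kisspeptin (*Kiss1*) and neurokinin B (*Tac2*) of other arcuate neurons drive the release of gonadotropin-releasing hormone. In the lateral hypothalamus, separate neurons make orexin (*Hcrt*), which holds wakefulness, and melanin-concentrating hormone (*Pmch*), which is tied to feeding and sleep, and neurotensin (*Nts*) is made by a further population there.

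*Pomc* is shown first because it had the widest range of levels among the peptide genes, and *Hcrt* and *Pmch* because their levels were most closely related to each other. The sequences below are the 250 bases before the start of each gene in RefSeq, on the gene's own strand and in build GRCm38.p6. They lie at chr12:3954695-3954944 (plus strand, *Pomc*), chr11:100762932-100763181 (minus strand, *Hcrt*) and chr10:88090822-88091071 (plus strand, *Pmch*), and capitals mark the letters TATAAA.
Pomc: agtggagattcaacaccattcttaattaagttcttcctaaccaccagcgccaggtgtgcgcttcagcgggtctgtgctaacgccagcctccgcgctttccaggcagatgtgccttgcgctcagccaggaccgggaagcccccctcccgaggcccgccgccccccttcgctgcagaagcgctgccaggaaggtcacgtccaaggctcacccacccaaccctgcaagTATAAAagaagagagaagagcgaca
Hcrt: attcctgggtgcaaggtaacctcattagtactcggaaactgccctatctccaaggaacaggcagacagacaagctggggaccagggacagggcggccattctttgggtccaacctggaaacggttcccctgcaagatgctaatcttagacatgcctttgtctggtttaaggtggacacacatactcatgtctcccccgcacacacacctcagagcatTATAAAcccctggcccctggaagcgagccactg
Pmch: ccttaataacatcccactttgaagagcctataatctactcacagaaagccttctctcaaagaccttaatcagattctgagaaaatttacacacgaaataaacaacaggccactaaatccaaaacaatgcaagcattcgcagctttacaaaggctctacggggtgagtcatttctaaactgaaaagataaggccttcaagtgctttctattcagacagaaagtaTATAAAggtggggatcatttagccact

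TATAAA began 25 bases before the start of *Pomc*, 33 bases before that of *Hcrt* and 27 bases before that of *Pmch*. It was searched on both strands and was present in 13.0% of 27025 promoters of the same length. The window of *Npy*, *Kiss1*, *Tac2* and *Nts* held no match, and no sequence is printed for *Agrp*. A second motif, TTCNNNGAA, was searched in the same way, was present in 7.18% of promoters and matched only *Pmch* among the 7 peptide genes with a sequence, 177 bases before its start. A match describes letters and not a binding site.

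Total counts of the 18 hypothalamic libraries ranged from 15095267 to 17859115. The library labelled Sham 1 stood apart. All 16 genes of a hypothalamus list were lower in it than in each of the other 17 hypothalamic libraries, and all 14 genes of a hippocampus list and all 13 genes of a choroid plexus list were higher. In that library *Agrp* was at 0, *Pomc* at 0.668, *Hcrt* at 0.446 and *Pmch* at 3.22 FPKM (fragments per kilobase of gene, scaled to the size of the library). Its label is therefore treated as mistaken for tissue, it was left out of the comparisons, and the Sham group held 2 libraries. A second library, PEL_10d 3, had the lowest *Agrp*, *Npy* and *Pomc* of the 17, and a further one, PEL_10d_GH 3, had by far the highest *Pomc*. Both stayed in the comparisons.

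Over the 17 libraries the peptide genes differed widely in level, on a scale that accounts for gene length. *Pmch* had a median of 647.1 FPKM, *Hcrt* 141.3, *Npy* 61.1, *Pomc* 43.6, *Tac2* 23.6, *Nts* 16.1, *Agrp* 5.45 and *Kiss1* 0.1 FPKM. *Tac2* varied least between libraries, with a coefficient of variation of 11.2%, followed by *Pmch* at 21.0%. *Agrp* varied by 60.1%, and *Pomc* by 362% with PEL_10d_GH 3 and 40.7% without it.

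**Figure D1:**
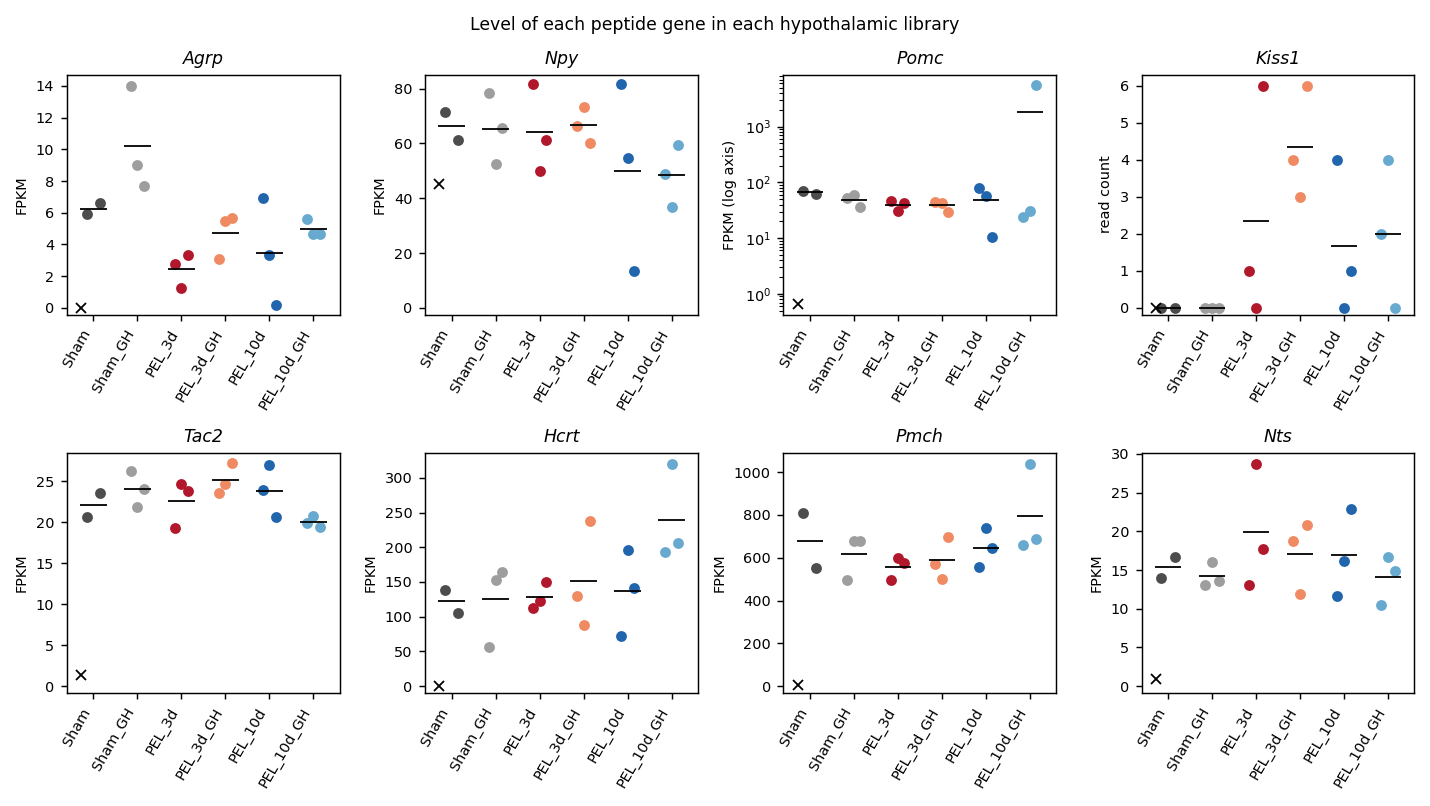
FPKM of each peptide gene (read count for *Kiss1*, log axis for *Pomc*) in each library of the 6 hypothalamic groups; points are libraries, lines are group means and the cross is the library labelled Sham 1, which the means leave out. *Agrp* lies lower in the 3 PEL_3d libraries than in the other Sham libraries, and *Pomc* reaches 5479 FPKM in 1 PEL_10d_GH library.

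*Agrp* was lower than in the Sham group of the same arm at day 3 in both arms, and at day 10 in the GH arm. It lies on chromosome 8 at 105566698-105637393 (minus strand, GRCm38), and 114 of its 1013 exon bases are shared with *Ctcf* on the opposite strand and with *Gm5914* on the same strand. Both Sham libraries held it at 5.91 and 6.60 FPKM, and the PEL_3d libraries at 2.78, 1.25 and 3.34 FPKM. Every PEL_3d library was below both Sham libraries. The fitted change was -1.35 (log2, SE 0.35, adjusted p = 0.0117, edgeR's quasi-likelihood test), a level 2.55-fold lower. In the GH arm *Agrp* was at 14.0, 9.02 and 7.69 FPKM in Sham_GH and at 3.10, 5.45 and 5.68 FPKM in PEL_3d_GH, again with no overlap. That change was -1.13 (log2, SE 0.29, adjusted p = 0.00782, edgeR), and over both arms together the day 3 change was -1.23 (SE 0.40, adjusted p = 0.014, edgeR).

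At day 10 *Agrp* was at 6.94, 3.31 and 0.177 FPKM in PEL_10d, a range that spans the 2 Sham values. The change against Sham was -0.85 (log2, SE 0.74, adjusted p = 0.533, edgeR) and did not pass. It was -0.30 without PEL_10d 3 and -1.79 without PEL_10d 1, and neither passed. In PEL_10d_GH it was at 5.62, 4.68 and 4.67 FPKM, every library below every Sham_GH library. That change was -1.04 (log2, SE 0.23, adjusted p = 0.00766, edgeR), while over both arms the day 10 change of -0.94 (SE 0.39) had an adjusted p of 0.0786 (edgeR). That change was -0.67 (adjusted p = 0.0632) without PEL_10d 3 and -1.41 (adjusted p = 0.0107) without PEL_10d 1. By mean level the groups ran from Sham_GH (10.2 ± 3.34 FPKM, SD, n = 3) and Sham (6.26 ± 0.484, n = 2) to PEL_10d_GH (4.99 ± 0.543), PEL_3d_GH (4.74 ± 1.43), PEL_10d (3.47 ± 3.38) and PEL_3d (2.46 ± 1.08, each n = 3). Among the last 4 groups neighbours in this order differed by less than the larger SD. Every Sham_GH library lay above both Sham libraries, and both GH arm comparisons rest on that higher level. PEL_10d_GH, at 4.67 to 5.62 FPKM, lay nearer to Sham, at 5.91 and 6.60 FPKM, than to Sham_GH. In these bulk samples fewer cells of a type and less RNA per cell cannot be told apart.

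The day 3 call in the arm without GH rests on few Sham libraries. Its adjusted p in edgeR was 0.0679 without Sham 2, 0.0889 without Sham 3 and 0.749 with Sham 1 kept, and 0.0953 when all groups shared 1 estimate of the spread. In the GH arm the call held without any single library, and its adjusted p was 0.0767 at day 3 and 0.141 at day 10 with the spread shared over all groups. Exact permutation tests of FPKM gave p = 0.2 for *Agrp* in PEL_3d against Sham and p = 0.1 in both GH comparisons, which are the smallest values that 3 against 2 and 3 against 3 libraries allow.

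*Npy*, made by the same arcuate neurons as *Agrp* and also widely by neurons elsewhere in the brain, did not pass in edgeR, fitted without a block for replicate number, in any comparison of all libraries. Its Sham values were 71.4 and 61.3 FPKM, and it was at 81.8, 49.9 and 61.1 FPKM in PEL_3d and at 66.4, 73.2 and 60.3 FPKM in PEL_3d_GH. The groups overlapped, with changes of -0.07 (log2, SE 0.17) and 0.00 (SE 0.14) against their Sham groups. At day 10 it was at 81.7, 54.6 and 13.4 FPKM in PEL_10d, and at 48.8, 36.7 and 59.5 FPKM in PEL_10d_GH against 78.5, 52.3 and 65.5 FPKM in Sham_GH. The change in the GH arm was -0.46 (log2, SE 0.18, adjusted p = 0.0742, edgeR), and -0.63 (adjusted p = 0.0224) without PEL_10d_GH 3. DESeq2 called it with all libraries (-0.46, adjusted p = 0.0197). In PEL_10d against Sham the change was -0.43 (SE 0.51, adjusted p = 0.655, edgeR), and 0.01 without PEL_10d 3.

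*Pomc* lies on chromosome 12 at 3954951-3960642 (plus strand). The Sham libraries had 71.2 and 61.5 FPKM and the PEL_3d libraries 45.9, 30.0 and 42.8 FPKM, without overlap. It fell by 0.76 on the log2 scale (SE 0.15, adjusted p = 0.00259, edgeR), and with *Agrp* it was 1 of 2 of the 7 tested peptide genes called lower in PEL_3d. Over all 14905 genes tested in that comparison 18.2% were called lower, 22.2% higher and 40.5% in either direction. In PEL_3d_GH *Pomc* was at 43.6, 43.2 and 29.0 FPKM against 51.9, 58.2 and 36.2 FPKM in Sham_GH, which overlapped, and the change of -0.36 (SE 0.19, adjusted p = 0.132, edgeR) did not pass. There *Agrp* was the 1 peptide gene called, against 52.1% of genes called in either direction and 25.2% called lower. The *Pomc* call had an adjusted p in edgeR of 0.0533 without Sham 2, 0.955 with Sham 1 kept and 0.701 with the spread shared over all groups. Over both arms at day 3, *Agrp* alone was called, where 60.1% of all genes were called and 28.9% were called lower. The *Pomc* change there was -0.55 (SE 0.94, adjusted p = 0.636, edgeR), and -0.56 (adjusted p = 0.00468, edgeR) without PEL_10d 3 and PEL_10d_GH 3, which share that fit.

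In the GH arm at day 10 *Pomc* was at 24.2 and 30.2 FPKM in PEL_10d_GH 1 and 2 and at 5479 FPKM, or 94449 counts, in PEL_10d_GH 3. The first 2 libraries were below every Sham_GH library and the other was 201-fold above their mean. The fitted change was 5.20 (log2, SE 1.70, adjusted p = 0.0415, edgeR), and without PEL_10d_GH 3 it was -0.88 (adjusted p = 0.00683), so that the direction depended on 1 library. The call was also lost without any 1 of the 3 Sham_GH libraries, with adjusted p of 0.118 to 0.139 (edgeR). *Pomc* is also made in quantity by the pituitary, and in PEL_10d_GH 3 a list of 12 pituitary genes summed to 85.4 FPKM, against 13.2 to 39.9 FPKM in the other 16 libraries. Of these genes 6 had their highest value of the 17 libraries there, namely *Prl*, *Cga*, *Lhb*, *Fshb*, *Tbx19* and *Pax7*, and 2 were at 0. *Prl*, which encodes prolactin, was at 32.4 FPKM against at most 5.05 elsewhere. *Pax7* and *Tbx19*, transcription factors of the pituitary cells that make POMC, were at 1.41 and 1.83 FPKM against at most 0.2 and 1.02. The part of pituitary RNA in the *Pomc* value was not tested. In the arm without GH *Pomc* was at 80.2, 56.5 and 10.4 FPKM in PEL_10d, which spans the Sham values, and the change was -0.46 (SE 0.56, adjusted p = 0.671, edgeR), and 0.02 without PEL_10d 3.

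**Figure D2:**
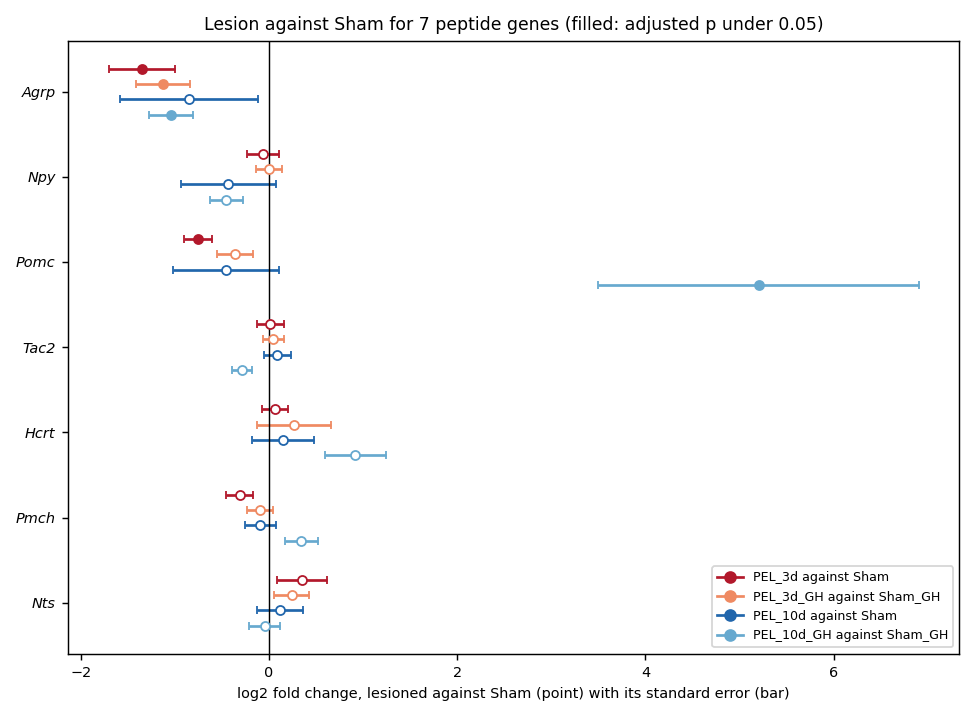
Fitted log2 fold change of 7 peptide genes in each lesioned group against its Sham group, with bars of 1 SE; filled points had an adjusted p under 0.05 in edgeR. *Agrp* lies below 0 in all 4 comparisons, and the *Pomc* change of 5.20 in PEL_10d_GH rests on 1 library.

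PEL_10d 3 was low in a subset of the peptide genes. Its level was 3.46% of the mean of PEL_10d 1 and 2 for *Agrp* (2 counts), 19.7% for *Npy* and 15.2% for *Pomc*. The genes of other neurons were close to that mean or above it, at 81.3% for *Tac2*, 105% for *Hcrt*, 100% for *Pmch* and 164% for *Nts*. *Ghrh*, the growth hormone-releasing hormone of arcuate neurons, was at 14.4% and *Tbx3*, a transcription factor of arcuate neurons, at 28.9%. Other genes of arcuate neurons were nearer to the mean, with *Bsx* at 56.3%, *Ghsr* at 63.8% and *Nkx2-1* at 72.9%. *Avp* and *Oxt*, the magnocellular hormones, were at 94.2% and 93.9%. Of the 16 hypothalamus genes 5 had their lowest value of the 17 libraries in PEL_10d 3, namely *Ghrh*, *Gal*, *Nkx2-4*, *Nr5a1* and *Fezf1*. So did 2 of a list of 20 genes of arcuate and lateral neurons, mostly regulators, namely *Isl1* and *Nptx2*. *Nr5a1* and *Fezf1*, transcription factors of the ventromedial nucleus, were at 2.23 and 4.96 FPKM there, against 7.77 and 16.95 FPKM in PEL_10d 1 and 6.26 and 13.5 FPKM in PEL_10d 2. How much of each nucleus this sample held was not tested.

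**Figure D3:**
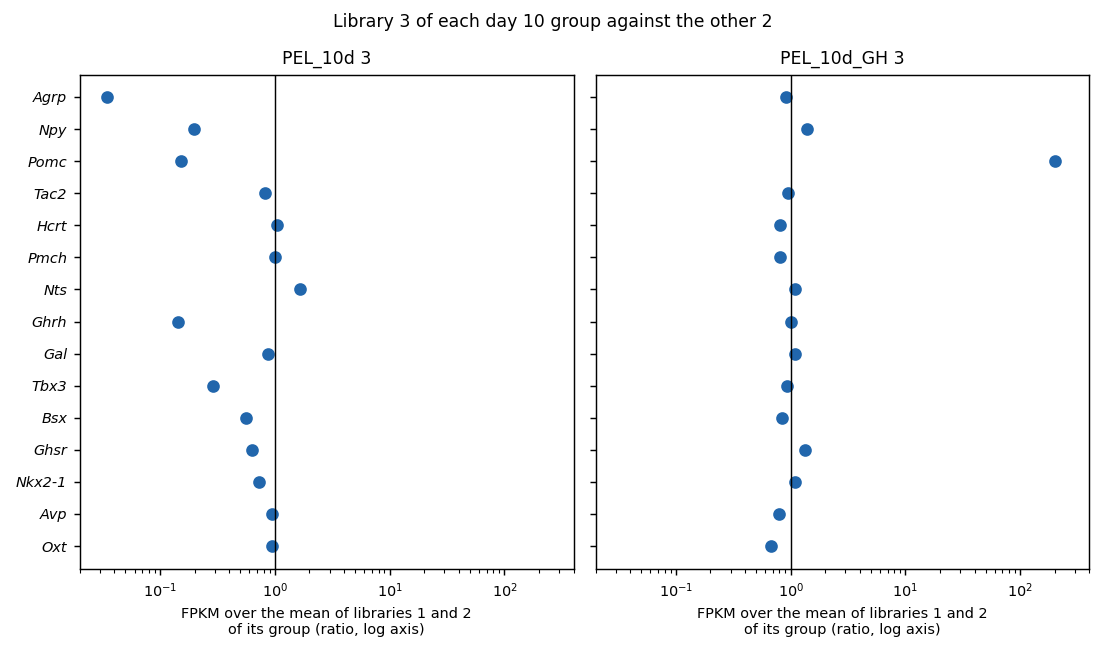
FPKM in the library numbered 3 of PEL_10d (left) and of PEL_10d_GH (right) as a ratio, on a log axis, to the mean of libraries 1 and 2 of the same group. *Agrp*, *Npy*, *Pomc* and *Ghrh* lie far below 1 on the left, and *Pomc* lies at 201 on the right.

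*Kiss1* was at the edge of detection. It had 0 counts in the 2 Sham and 3 Sham_GH libraries compared, and 9 of the 12 lesioned libraries had a count, of at most 6 and 31 in sum. A count of 0 allows up to 3 counts a library, for counting error only. All 779 of its exon bases are shared, on the same strand, with the read-through gene *Gm28040*, so the division of reads between them is uncertain. Counts of *Kiss1* and *Gm28040* together were 11 and 0 in Sham, 8, 8 and 9 in Sham_GH, 3, 2 and 6 in PEL_3d, 4, 3 and 11 in PEL_3d_GH, 10, 8 and 6 in PEL_10d and 5, 4 and 3 in PEL_10d_GH. Summed in this way the lesioned libraries lay within the range of the Sham libraries. *Kiss1* was below the filter on low counts. With no filter its adjusted p was 0.0128 for the lesion at day 3 over both arms (edgeR), a call that depends on the division of reads.

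*Tac2* was the steadiest of the peptide genes. It was at 20.6 and 23.6 FPKM in Sham, 26.2, 21.8 and 24.0 FPKM in Sham_GH, 19.3, 24.7 and 23.9 FPKM in PEL_3d, 23.6, 24.6 and 27.2 FPKM in PEL_3d_GH and 23.9, 27.0 and 20.7 FPKM in PEL_10d. In PEL_10d_GH it was at 19.9, 20.8 and 19.4 FPKM, each below every Sham_GH library. The change there was -0.28 (log2, SE 0.11, adjusted p = 0.0656, edgeR). In the other 3 lesion comparisons it lay between 0.01 and 0.09, with SE of 0.11 to 0.14.

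*Hcrt* was highest in PEL_10d_GH, with 192.8, 320.0 and 205.7 FPKM against 56.6, 153.6 and 164.3 FPKM in Sham_GH. The groups did not overlap, and the change of 0.92 (log2, SE 0.32) had an adjusted p of 0.0559 (edgeR). Across alternatives that adjusted p ranged from 0.00898 to 0.194. In Sham *Hcrt* was at 138.5 and 105.6 FPKM, in PEL_3d at 113.2, 123.3 and 150.0 FPKM, in PEL_3d_GH at 130.3, 88.6 and 237.5 FPKM and in PEL_10d at 72.3, 196.2 and 141.3 FPKM. These groups overlapped, with changes of 0.06 (SE 0.14) in PEL_3d and 0.15 (SE 0.33) in PEL_10d against Sham.

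*Pmch*, the most abundant, was at 808.7 and 551.6 FPKM in Sham, 493.9, 599.3 and 574.4 FPKM in PEL_3d and 554.5, 739.5 and 647.1 FPKM in PEL_10d. With GH it was at 497.5, 679.5 and 678.2 FPKM in Sham_GH, 568.5, 499.8 and 696.4 FPKM in PEL_3d_GH and 659.0, 1038 and 688.0 FPKM in PEL_10d_GH. All lesioned groups overlapped their Sham group. The changes were -0.31 (log2, SE 0.14, adjusted p = 0.108, edgeR) in PEL_3d, -0.10 (SE 0.14) in PEL_3d_GH, -0.09 (SE 0.17) in PEL_10d and 0.34 (SE 0.17, adjusted p = 0.168, edgeR) in PEL_10d_GH. The PEL_3d change was 0.00 without Sham 2 and -0.57 without Sham 3. The PEL_10d_GH change was 0.09 without PEL_10d_GH 2 and 0.46 without PEL_10d_GH 1. Of the 749 exon bases of *Pmch*, 435 are shared with *Parpbp* on the opposite strand.

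*Nts* was at 14.0 and 16.7 FPKM in Sham, 13.1, 28.8 and 17.7 FPKM in PEL_3d and 11.7, 16.2 and 22.8 FPKM in PEL_10d. In the GH arm it was at 13.1, 16.1 and 13.6 FPKM in Sham_GH, 18.7, 11.9 and 20.8 FPKM in PEL_3d_GH and 10.5, 16.8 and 14.9 FPKM in PEL_10d_GH. All these groups overlapped their Sham group, and the changes lay between -0.05 and 0.35 on the log2 scale, with SE of 0.16 to 0.26. The PEL_3d change was 0.585 (adjusted p = 0.0442, edgeR) without PEL_3d 1 and 0.00 without PEL_3d 2. The PEL_3d_GH change was 0.44 (adjusted p = 0.0151, edgeR) without PEL_3d_GH 2 and 0.08 without PEL_3d_GH 3.

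In PEL_10d against Sham 0 of 7 peptide genes were called, against 9.4% of all genes (1392 of 14801), 7.97% higher and 1.43% lower. There 3631 genes had an unadjusted p under 0.05. In PEL_10d_GH against Sham_GH 2 of 7 were called, *Agrp* lower and *Pomc* higher, against 30.9% of genes in either direction, 13.3% lower and 17.7% higher. Over both arms at day 10 0 of 7 were called against 31.9% of genes. From day 3 to day 10 in the arm without GH 0 of 7 were called against 18.5% of genes, 6.33% higher and 12.2% lower. *Pomc* there was 0.30 higher (log2, SE 0.52), and 0.78 higher (adjusted p = 0.0309, edgeR) without PEL_10d 3. The comparisons with Sham at day 3 and day 10 share the same 2 Sham libraries. Ordered by mean FPKM, no neighbouring groups differed by more than the larger SD for *Npy*, *Pomc*, *Tac2*, *Pmch* or *Nts*. For *Hcrt* only the top pair did, PEL_10d_GH (239.5 ± 70.0, SD, n = 3) and PEL_3d_GH (152.1 ± 76.8, n = 3), and their ranges overlapped.

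GH treatment called none of the peptide genes. In Sham_GH against Sham 1.09% of all genes were called. *Agrp* was higher in every Sham_GH library than in either Sham library, by 0.72 (log2, SE 0.25, adjusted p = 0.19, edgeR). *Pomc* was lower in every one, by -0.42 (log2, SE 0.15, adjusted p = 0.194, edgeR). In PEL_3d_GH against PEL_3d 0.027% of genes were called, or 4 of 14798, and *Agrp* differed by 0.96 (SE 0.37, adjusted p = 0.729, edgeR) with overlapping ranges. In PEL_10d_GH against PEL_10d edgeR called 0% of genes, with 906 at an unadjusted p under 0.05, and DESeq2 called 39 genes. *Hcrt* differed there by 0.81 (SE 0.32, adjusted p = 0.791, edgeR) and *Pomc* by 5.24 (SE 1.91, adjusted p = 0.782, edgeR), or by -0.85 without PEL_10d_GH 3. In Sham_GH against Sham 2 genes of the lists below were called, namely *Cck* at 1.05 (SE 0.16, adjusted p = 0.0112, edgeR) and *Adcyap1* at 0.47 (adjusted p = 0.0118, edgeR), and they share the Sham_GH libraries with the GH arm of the lesion comparisons.

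The lesion effect was compared between the GH arms by an interaction term. At day 3 edgeR called 0% of genes, with 1564 at an unadjusted p under 0.05, and DESeq2 called 89, with no peptide gene called by either. The effect on *Agrp* differed between arms by 0.23 (log2, SE 0.80, adjusted p = 0.956, edgeR) and that on *Pomc* by 0.40 (SE 1.88). At day 10 edgeR called 0.00652% of genes and no peptide gene. The difference was -0.20 (SE 0.79) for *Agrp*, 0.76 (SE 0.58) for *Hcrt* and 5.65 (SE 1.87, adjusted p = 0.398, edgeR) for *Pomc*, which was -0.42 without PEL_10d_GH 3. Without PEL_10d 3 the *Agrp* difference was -0.75, and without PEL_10d 1 it was 0.74. The widths of these errors leave sizeable differences undetectable with these libraries.

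Receptors of the peptides were lower at day 3. Of 14 receptor genes, 10 were called lower in PEL_3d and 8 in PEL_3d_GH, and 0 were called higher in either, where 18.2% and 25.2% of all genes were called lower. Their median changes were -0.56 and -0.48 on the log2 scale, against -0.01 and 0 over all genes. The melanocortin receptor *Mc3r*, on which AgRP and POMC peptides act, fell by 1.12 (SE 0.22, adjusted p = 0.00287, edgeR) and by 0.85 (SE 0.17, adjusted p = 0.00231, edgeR). Receptors of neuropeptide Y were among the lowest in PEL_3d, with *Npy5r* at -1.01, *Npy1r* at -0.96 and *Npy2r* at -0.87. In PEL_3d_GH the opioid receptor *Oprm1* was at -1.12, the orexin receptor *Hcrtr2* at -0.77 and the neurokinin B receptor *Tacr3* at -0.62. At day 10, *Npy2r* was the 1 receptor called in PEL_10d (-0.46, adjusted p = 0.0468, edgeR), a call absent without PEL_10d 3. *Mc3r* (-0.60) and *Npy2r* (-0.30) were the 2 of 14 receptors called in PEL_10d_GH. Over all genes 1.43% were called lower in PEL_10d and 13.3% in PEL_10d_GH, so the receptor count in PEL_10d_GH lay near the share of all genes. Marker genes of neurons as a whole moved with these lists, since 7 of 10 pan-neuronal genes were called lower at day 3 in each arm. Their summed level was 1370 to 1530 FPKM in PEL_3d and 1207 to 1460 FPKM in PEL_3d_GH, against 1737 to 1779 FPKM in Sham and 1754 to 1853 FPKM in Sham_GH. A list of 12 microglia and macrophage genes summed to 105.9 to 110.4 FPKM in Sham and 923.5 to 1271 FPKM in PEL_3d, and 83.9 to 110.7 FPKM in Sham_GH and 1190 to 1649 FPKM in PEL_3d_GH. Their part in the changes of receptor and peptide genes was not tested.

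**Figure D4:**
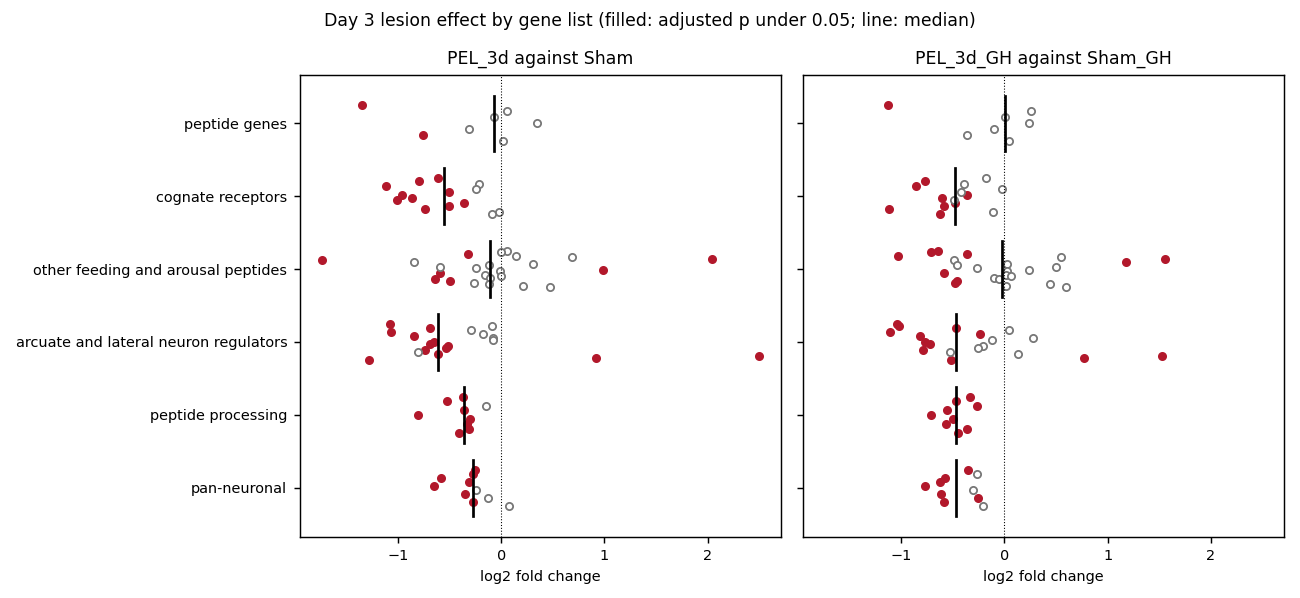
Log2 fold change of each tested gene of 6 lists in PEL_3d against Sham (left) and PEL_3d_GH against Sham_GH (right); filled points had an adjusted p under 0.05 in edgeR and lines are medians. The receptor list lies wholly below 0 in both arms, while the peptide genes are centred near 0.

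Of 30 other peptide and transmitter genes of feeding and arousal, 24 were tested at day 3. In PEL_3d 2 were called higher and 5 lower, and in PEL_3d_GH 2 higher and 7 lower. Over all genes 22.2% were called higher and 18.2% lower in PEL_3d, and 26.9% and 25.2% in PEL_3d_GH, so the shares called lower in the list lay near those of all genes. *Gal*, which encodes galanin, rose by 2.04 (log2, SE 0.17, adjusted p = 6.42e-06, edgeR) in PEL_3d and by 1.55 (SE 0.27, adjusted p = 0.00089, edgeR) in PEL_3d_GH. In PEL_3d *Npvf* was at 0.99, *Ghrh* at -1.74 and *Sst*, the somatostatin gene, at -0.64. In PEL_3d_GH *Gnrh1* was at 1.18, *Cck*, the cholecystokinin gene, at -1.03 and *Bdnf* at -0.71. At day 10 *Adcyap1* was the 1 gene called in PEL_10d, at 0.30, where 7.97% of all genes were called higher and 1.43% lower. In PEL_10d_GH 3 were called higher and 5 lower, with *Crh*, the corticotropin-releasing hormone gene, at 1.73, *Nmb* at 0.78, *Cck* at -1.23 and *Bdnf* at -0.48. Over all genes 17.7% were called higher and 13.3% lower there. Without PEL_10d_GH 3 the counts in the list were 1 higher and 4 lower.

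A list of 20 genes of arcuate and lateral neurons, mostly regulators and called so here, had 19 genes tested. Of these 11 were called lower and 2 higher in PEL_3d, and 10 lower and 2 higher in PEL_3d_GH. Over all genes 18.2% were called lower and 22.2% higher in PEL_3d, and 25.2% and 26.9% in PEL_3d_GH, and the processing genes given next come from the same comparisons. *Socs3*, an inhibitor of leptin and cytokine signals, rose by 2.50 (SE 0.17, adjusted p = 1.85e-06, edgeR) and by 1.53 (SE 0.25, adjusted p = 0.000676, edgeR). *Bsx*, a transcription factor needed for *Agrp* and *Npy* expression, fell by 1.08 and by 1.04, and *Ghsr*, the ghrelin receptor of *Agrp* neurons, fell by 1.07 and by 1.11. *Tbx3* was at -1.28 in PEL_3d and *Ebf2* at -1.02 in PEL_3d_GH. At day 10 *Lepr*, the leptin receptor, was at 0.68 and *Otp* at -0.59 in PEL_10d. Over all genes 7.97% were called higher and 1.43% lower in PEL_10d, and 17.7% and 13.3% in PEL_10d_GH. The same shares hold for the day 10 processing genes given below. In PEL_10d_GH 9 regulators were called lower and 1 higher, with *Rax* at -1.73, *Ghsr* at -1.07, *Nkx2-1* at -0.87 and *Tbx3* at -0.78. Without PEL_10d_GH 3 6 were called lower. In the same comparison 7 of 10 pan-neuronal genes were called lower (median -0.29) and 12 of 12 microglia and macrophage genes higher (median 3.38), and their part in these changes was not tested. Genes that process peptides fell at day 3, 8 of 9 in PEL_3d and 9 of 9 in PEL_3d_GH. *Pcsk1*, the convertase that begins the cutting of POMC, was at -0.81 and -0.72. *Chgb*, *Scg5* and *Chga* were at -0.52, -0.41 and -0.37 in PEL_3d, and *Pcsk2*, *Pam* and *Pcsk1n* at -0.56, -0.56 and -0.50 in PEL_3d_GH. At day 10 *Cpe*, which trims the cut peptides, was at 0.40 in PEL_10d and 0.38 in PEL_10d_GH, where *Pcsk1* was at -0.32, *Pam* at -0.31 and *Chgb* at -0.27. In PEL_10d *Chgb* was at -0.27. From day 3 to day 10 in the arm without GH, 2 receptors were called higher, *Hcrtr2* at 0.55 and the neurotensin receptor *Ntsr2* at 0.51. Of the other peptides 1 was called higher and 3 lower, with *Gal* at -2.28 and *Npvf* at -1.05. Of the regulators 5 were called higher and 2 lower, with *Socs3* at -1.86, *Lepr* at 0.76, *Ghsr* at 0.74 and *Nhlh2* at 0.70. Of the processing genes 4 were called higher, *Cpe* at 0.56, *Pcsk1* at 0.47, *Pam* at 0.28 and *Chgb* at 0.26. Over all genes 6.33% were called higher and 12.2% lower in that comparison. There 6 of 12 microglia and macrophage genes were called lower (median -0.87), and of 10 pan-neuronal genes 2 were called higher and 1 lower, and their part in these changes was not tested.

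In the arm without GH the day 3 counts of lower genes were smaller with 1 Sham library left out, at 5 and 6 receptors, 7 and 8 regulators, and 6 and 5 processing genes, without Sham 2 and without Sham 3. With Sham 1 kept they were 2, 0 and 0. The day 10 calls of PEL_10d in these lists were absent without Sham 2, without Sham 3 and with Sham 1 kept.

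Among the peptide genes *Hcrt* and *Pmch* varied most closely together, with a Pearson correlation of 0.81 of log2(CPM + 1) over 17 libraries, where CPM is the count scaled to the library total. The same libraries and depth lie behind both values, and libraries of a group are among the points. The correlation was 0.82 without PEL_10d 3 and PEL_10d_GH 3. *Agrp* and *Npy* had 0.66, and 0.28 without PEL_10d 3. *Npy* and *Pomc* had 0.33, 0.82 without PEL_10d_GH 3 and 0.58 without both libraries. *Npy* and *Hcrt* had -0.39, and -0.77 without PEL_10d 3.

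**Figure D5:**
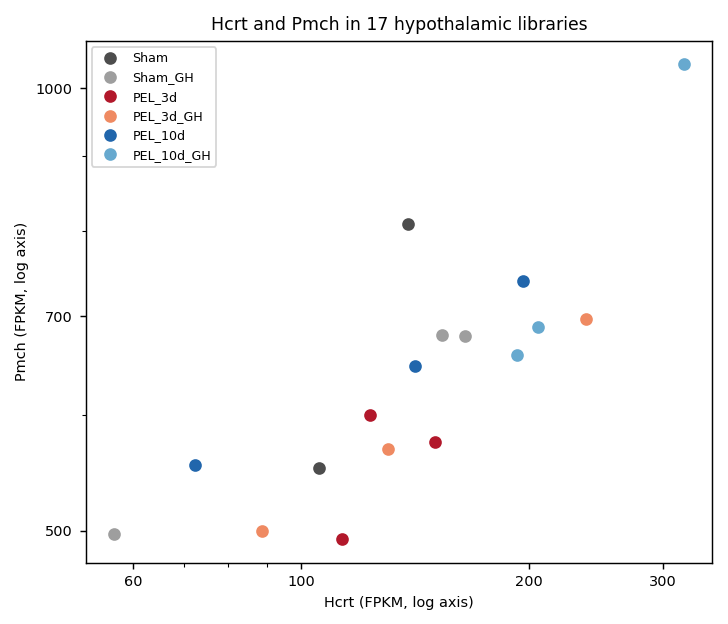
*Pmch* against *Hcrt* in FPKM on log axes, with 1 point for each of 17 hypothalamic libraries coloured by group. Both genes are highest in 1 PEL_10d_GH library, at 1038 and 320.0 FPKM.

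Over 14324 genes the pattern most like that of *Agrp* was that of *Cited1* (r = 0.944), followed by *Camk1g* (0.898), by the same measure over the 17 libraries. For *Npy* these were *Lmnb2* and *Fezf1* (0.812 each), for *Tac2* *Hpf1* (0.791) and *Mpi* (0.778), and for *Nts* *Tmx1* (0.856) and *Ube2w* (0.809). *Hcrt* was closest to *Pmch* (0.815) and *Asic4* (0.762), and *Pmch* after *Hcrt* to *Lysmd1* (0.79). *Pomc* was closest to *Oacyl* (0.938) and *Esm1* (0.83), and without PEL_10d_GH 3 to *Fezf1* (0.879) and *Gsx1* (0.853) instead. Without that library *Npy* was closest to *Pomc* (0.823). PEL_10d 3 held the lowest *Agrp*, *Npy*, *Pomc* and *Fezf1* of the 17 libraries. The closest genes were not sought without it, so how far they rest on PEL_10d 3 is not known. By Spearman correlation over the 17 libraries the closest gene was another for some, with *Dnajc30* (0.939) for *Agrp*, *Fndc3c1* (0.77) for *Npy* and *Vgll3* (0.831) for *Pomc*, while *Hcrt* and *Pmch* were still closest to each other (0.836) and *Nts* to *Tmx1* (0.811).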

How the data were processed

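Per the labels, tissue was kept in liquid nitrogen and mRNA libraries were made from total RNA. According to their methods, the authors aligned reads with Hisat2, counted them with featureCounts and tested them with DESeq2, and the submitters' notes name the builds GRCm38 and mm10. For each gene and library the deposited file holds an estimated count, made by the authors from aligned reads, and 8.22% of these values were not whole and were rounded for testing. It also holds FPKM values, which the authors scaled to the length of the gene and the size of the library. Identifiers were matched to symbols through a table of mouse gene names (22219 of 22274), which gave *Tac2* for a gene that the file names otherwise. Gene positions are from GENCODE for GRCm38, and promoters from RefSeq.

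Differences were tested in R 4.3.3 by edgeR 4.0.16 (quasi-likelihood test, TMM, filterByExpr with a minimum count of 10, Benjamini-Hochberg adjustment over all tested genes, threshold 0.05). Each pair was fitted on its own groups, and effects over both arms and interactions on 17 libraries. The edgeR test was also run on simulated data for some comparisons, and the outcome is not given here. FPKM was also compared by exact two-sided permutation tests (scipy 1.17.1). At this depth a count of 0 allows 3 counts. Alternatives were DESeq2 1.42.0, its size factors, other filters on low counts, limma 3.58.1 on log2(FPKM + 0.1) and log2(FPKM + 1), 1 fit over all groups, the replicate number as a block, Sham 1 kept and each library left out. The text names the peptide genes, the 2 genes most like each, and up to 4 called genes of largest change per list and comparison. Genes of the tissue check, and those set beside PEL_10d 3, are named besides and were chosen after their values were seen. The peptide genes and lists were chosen with earlier results of these data known. Hippocampal libraries entered no comparison. A gene of the pituitary list is not reported here and was left out of its counts and sums.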

Additional observations from a re-analysis of the deposited data

Results flagged for a closer look

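In data outside the comparisons, the library titled hippocampal Sham 1 held peptide genes at hypothalamic levels. *Pmch* was at 606 FPKM there, against at most 1.27 in the other 5 hippocampal libraries. *Hcrt* was at 84.9 FPKM against at most 0.38, and *Pomc* at 58.4 FPKM against at most 1.20. *Tac2* was at 20.4 FPKM against at most 4.35, *Nts* at 15.1 FPKM against at most 2.14, and *Agrp* at 8.61 FPKM against at most 0.096. *Npy*, at 74.6 FPKM, was close to the 46.4 to 71.9 FPKM of the other 5. The library labelled hypothalamic Sham 1 had the opposite pattern, with *Pmch* at 3.22 and *Tac2* at 1.35 FPKM. Among the other 5, the library titled hippocampal Sham 3 has hypothalamus in its tissue field, and it was grouped by its title. Whether the labels of these libraries were exchanged was not tested.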

How the results depend on the processing

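Of 1458 values of a single peptide gene in a comparison under an alternative, 1288 kept their direction and side of the threshold, 17 lost a call, 28 gained one, and 124 changed sign with no call in either fit. Few of the 84 combinations of gene and comparison were called in the main fits. Most of the 1288 were therefore never called, and they say little about how steady a call was. The 1 called value that reversed was *Pomc* in PEL_10d_GH against Sham_GH, at -0.88 without PEL_10d_GH 3, the lowest with a library left out, and 5.78 the highest. Its DESeq2 adjusted p was not given by the tool. Numbers of called peptide genes moved as follows, and where no reason is given the cause was not tested. In PEL_3d against Sham 2 were called, and 1 with a mean count of at least 50, which *Agrp* did not reach, 0 in 1 fit over all groups and 0 with Sham 1, and 0 to 3 with each library left out. In PEL_3d_GH against Sham_GH 1 was called, and 2 with no filter or with limma at either pseudocount, where *Kiss1* is added, 0 in 1 fit over all groups, and 1 to 2 with each library left out. In PEL_10d_GH against Sham_GH 2 were called, and 1 in 1 fit over all groups and 1 to 3 with each library left out. For the lesion at day 3 over both arms 1 was called, 2 with no filter, 0 with Sham 1, and 2 without PEL_10d 3 and PEL_10d_GH 3 together, a setting chosen after seeing the data, as were list counts under alternatives. With each library left out, 0 to 1 were called at day 10 over both arms and in PEL_10d against PEL_3d.

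The replicate block was fitted as an alternative, since nothing states whether equal numbers mark shared animals. Correlations of deviations between equal numbers ran from -0.436 to 0.364. With no values for unequal numbers beside them they cannot settle this. With the replicate block 3 peptide genes were called in PEL_3d against Sham, with *Nts* added (0.55, adjusted p = 0.0148, edgeR), 4 in PEL_10d against Sham (*Npy* at -1.16, adjusted p = 0.0146, with *Agrp*, *Pomc* and *Hcrt*), 1 in PEL_10d against PEL_3d, 2 in Sham_GH against Sham, 2 in PEL_3d_GH against Sham_GH and 4 in PEL_10d_GH against Sham_GH, where *Npy* was at -0.46 (adjusted p = 0.0121, edgeR) and *Pomc* at 0.81 (adjusted p = 0.739, edgeR).

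Over all genes, calls in PEL_3d against Sham numbered 6035, 1683 with Sham 1 and 3394 without Sham 2, and in PEL_10d against Sham 1392, 269 with Sham 1 and 205 without Sham 2. In PEL_10d against PEL_3d they were 2742 and 1333 without PEL_3d 3. In Sham_GH against Sham they were 159, and 0 to 359 over other settings. In PEL_3d_GH against PEL_3d they were 4, and 1 to 59. For the lesion at day 10 over both arms they were 4895 and 2623 with Sham 1. For the day 10 interaction they were 1, and 63 with DESeq2. Agrp and Kiss1 had the lowest counts, which limits what could be detected for them.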
